A study of Mus musculus with 11 samples.

Results

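Serpin genes encode a family of related proteins, most of which block proteases, and they were read here in mouse T cell acute lymphoblastic leukaemias (T-ALL) with and without the histone demethylase Utx. The members are all rows of the authors' gene table whose symbol begins with Serpin, 68 of 37224 rows. A value was listed for 38 members and for 23381 rows in all. Among those 38, 14 had a combined count of at least 100, 5 had 20 to 99 and 19 had fewer than 20. Each of the other 30 members stands in the table with no value in either pool.

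The study followed 11 leukaemia samples on a C57/BL6 background. Donor progenitors carrying the cKit receptor were either Utx-/Y (Utx knockout, 5 samples) or Utx+/+ or Utx+/Y (Utx wild-type, 6 samples), and every donor cell population was infected with a retrovirus that expresses Notch1-IC, the activated intracellular part of Notch1, and injected into a vein of recipient mice. Blasts came from bone marrow (2 knockout and 2 wild-type samples) or spleen (3 and 4), and the labels name 1 marrow sample per genotype and 1 spleen sample of the wild-type as reruns. Knockout donors were male and wild-type donors of either sex, so genotype and donor sex cannot be told apart. Because the retrovirus drives the disease in all samples, no group here shows Utx loss without Notch1-IC.

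The table holds 1 count per gene and genotype, called a pool here, with totals of 106445530 (knockout) and 108015222 (wild-type). There is thus 1 value per group: no difference below has a replicate check, and it cannot be seen whether all tumours or 1 tumour gave the counts of a gene. Levels are given as CPM, counts scaled to the pool's total, and pairs of values below are in the order knockout against wild-type. A ratio is log2 of knockout over wild-type CPM with 0.5 counts added to each pool, and its 95% interval is an exact binomial (Clopper-Pearson) one for counting error. A gene is called higher or lower where the combined count was at least 100, the change at least 2-fold and the interval free of 0. Kdm6a, the gene of Utx, was at 10.5 against 58.3 CPM, over the whole gene. In pools of tissue cells, fewer cells of a type and less RNA per cell cannot be told apart.

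Serpins fold into a strained shape with an exposed reactive loop. A protease that cuts this loop is dragged across the serpin, distorted and trapped for good, so that each molecule works once. Clade A serpins are mostly secreted, clade B serpins stay inside the cell and shield it from its own or a neighbour's granule and lysosomal proteases, and clades C to I hold regulators of clotting, fibrinolysis, complement and tissue proteolysis together with a few members that no longer inhibit. In blood cells the best known ones guard against neutrophil elastase, cathepsin G, granzyme B and lysosomal cathepsins.

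Most serpins with enough reads stood higher in the knockout pool. Of the 14 members with at least 100 counts, 10 were higher and 0 were lower, beside 11.2% of all 13833 such genes called higher and 5.36% called lower. The 4 that were neither are Serpinb9, Serpine2, Serpinf1 and Serpini1. The median log2 ratio was 1.32 over these 14 members and -0.07 over all 13833 genes. Over the 19 members with at least 20 counts the median was 1.44, and 18 ratios were positive and 1 was negative. The minimums apply to the combined count, so members such as Serpinb8 and Serpina3f passed the minimum of 100 through the knockout pool alone. Serpina3b, Serpina3c and Serpinb2 passed the minimum of 20 in the same way. The median, the signs and the interval counts over the 19 members are thus tied to that filter. The counting interval lay above 0 for 17 of the 19, beside 34.9% of all 17186 genes with that count, and below 0 for 1, beside 42.7%. Summed over all members, the family reached 228 against 77.4 CPM. Without Serpinb8 the sums were 171 and 77.3 CPM.

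**Figure D1:**
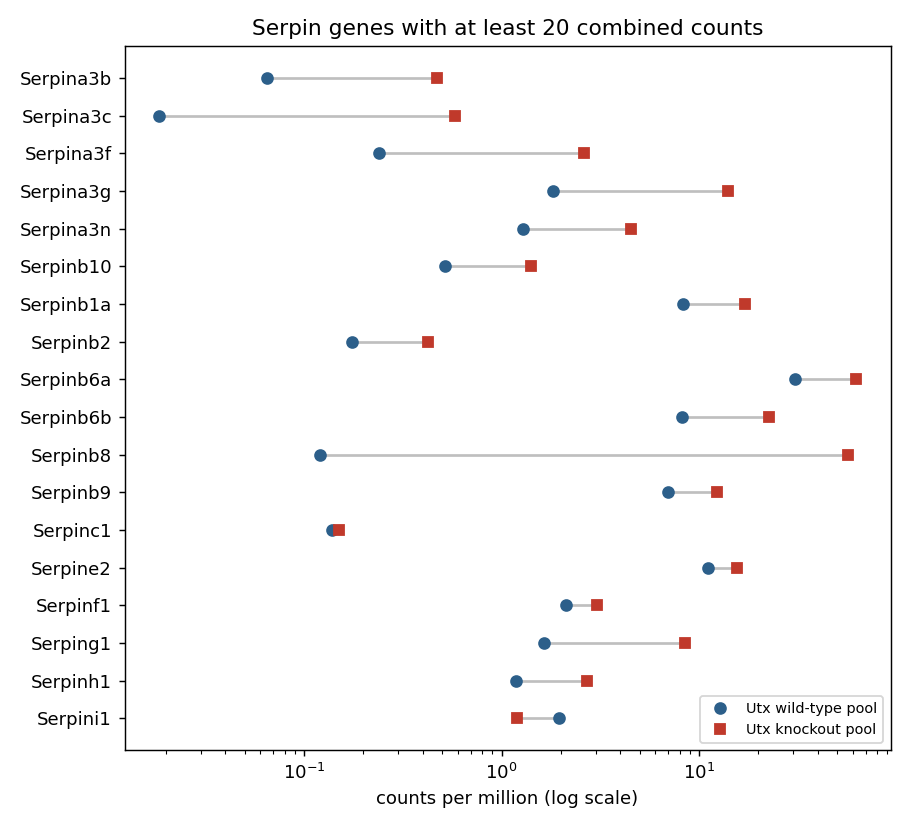
Level of 18 of the 19 serpin genes with at least 20 combined counts, in CPM on a log axis, with squares for the Utx knockout pool and circles for the Utx wild-type pool (1 value per pool, no error bar). Serpinb8 spans 0.12 to 56.9 CPM, and Serpini1 is the gene whose knockout value lies to the left of the wild-type value.

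Serpinb8, an intracellular inhibitor known to block the proprotein convertase furin, differed most. It had 6053 counts where Utx was deleted and 13 where it was intact (56.9 against 0.12 CPM). The log2 ratio was 8.83 (8.11 to 9.79), which is a 455-fold difference, and 12 of the 13833 genes had a larger ratio. Its reads made up 24.9% of all serpin counts in the knockout pool (95% Clopper-Pearson interval 24.4 to 25.5), against 0.16% in the other pool (0.083 to 0.27). Scaled to exon length, it was the most abundant of the 14 members in the knockout pool, at 11.9 CPM per kb (exact Poisson interval 11.6 to 12.2), and the least abundant in the wild-type pool, at 0.025 CPM per kb (0.013 to 0.043). In the knockout pool its interval overlapped that of Serpinb6a (11.2 to 11.8), which had more counts there (6620).

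The gene (ENSMUSG00000026315) lies on chromosome 1 at 107590006 to 107610484 on the plus strand (GRCm38, GENCODE M21). It closes a row of 12 clade B genes, and the next protein-coding genes after it, Cdh7 and Cdh19, are 2372 and 3278 kb away and have no value in the table. Dsel, the third neighbour on that side, was at 79 against 82 counts. On the near side Serpinb10 had 151 against 56 counts, Serpinb2 45 against 19 and Serpinb7 12 against 5, while Serpinb11, Serpinb12, Serpinb13 and the 4 Serpinb3 genes had no value. Serpinb5, at the far end of the row, had 0 against 18 counts, at least 5.91-fold lower against the limit of 3 counts that a 0 allows in a pool. Without Serpinb8 the row summed to 208 against 98 counts, or on the log2 scale 1.10 (0.75 to 1.47). Serpinb8 gave 6053 of the 6261 knockout counts of the row and 13 of its 111 wild-type counts.

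The promoter window of Serpinb8 is shown because Serpinb8 had the largest ratio among the members. It covers 250 bases before to 50 bases after the start (RefSeq, GRCm38.p6, chr1:107589756-107590055, plus strand), and capitals mark matches to TGGGAA on either strand, the core letters bound by the Notch partner RBPJ.
Serpinb8 promoter: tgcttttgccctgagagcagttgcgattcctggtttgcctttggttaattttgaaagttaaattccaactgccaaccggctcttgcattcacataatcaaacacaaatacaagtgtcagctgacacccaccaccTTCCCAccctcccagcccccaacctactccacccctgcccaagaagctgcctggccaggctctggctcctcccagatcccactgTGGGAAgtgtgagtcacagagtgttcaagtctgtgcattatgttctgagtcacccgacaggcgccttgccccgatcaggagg
The window holds 2 such matches, 5 CpG pairs and 53.3% G or C, where the median of 32851 windows is 7 CpG pairs and 52.7%. TGGGAA occurs in 25.6% of all windows, and a match describes letters, not a bound site.

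All 5 Serpina3 genes with at least 20 counts had positive ratios. In mice the single human antichymotrypsin gene is represented by a row of copies that differ most in the part coding for the reactive loop. Serpina3g, a cytosolic inhibitor of lysosomal cathepsins known from activated and memory T cells, had 1493 against 198 counts, or 6.66 against 0.87 CPM per kb of exon. Its log2 ratio was 2.93 (2.72 to 3.16). Serpina3f, its protein-coding neighbour 15.1 kb away, had 279 against 26 counts, its log2 ratio being 3.42 (2.86 to 4.08). Serpina3n, a secreted inhibitor of granzyme B, had 483 against 139 counts, its log2 ratio being 1.81 (1.54 to 2.10). Serpina3f, Serpina3g and Serpina3n were called higher. Serpina3b (50 against 7 counts) and Serpina3c (62 against 2) were below the count minimum, with log2 ratios of 2.77 (1.71 to 4.24) and 4.66 (3.06 to 8.05). Both reached 20 combined counts only through the knockout pool, so their positive sign is tied to that filter.

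Fewer reads came from the other copies. Serpina3h, a transcribed pseudogene in GENCODE M21, had 13 against 1 counts, Serpina3i 9 against 1 and Serpina3m 14 against 0, the last being at least 4.74-fold higher by the same limit. The pseudogenes Serpina3d-ps and Serpina3e-ps had 1 against 0 and 0 against 2 counts. Serpina3a, Serpina3j, Serpina3k and Serpina3l-ps had no value. Outside the Serpina3 copies the same stretch of chromosome 12 was nearly silent in both pools: Serpina12 had 17 against 1 counts, Serpina9 3 against 0, and Serpina1b, Serpina1d and the 2 rows named Serpina11 had at most 2 in either pool. The remaining antitrypsin copies Serpina1a, Serpina1c, Serpina1e and Serpina1f, the hormone carrier gene Serpina6, Serpina5, Serpina10 and Serpina4-ps1 had no value. Serpina7, which encodes a thyroxine carrier and lies on chromosome X, had 0 against 15 counts, at least 4.93-fold lower. Summed over clade A, the pools held 2424 and 397 counts, or on the log2 scale 2.63 (2.48 to 2.79). The next gene beyond Serpina3n with enough reads, Dicer1, was at 3872 against 4621 counts, or on the log2 scale -0.23.

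**Figure D2:**
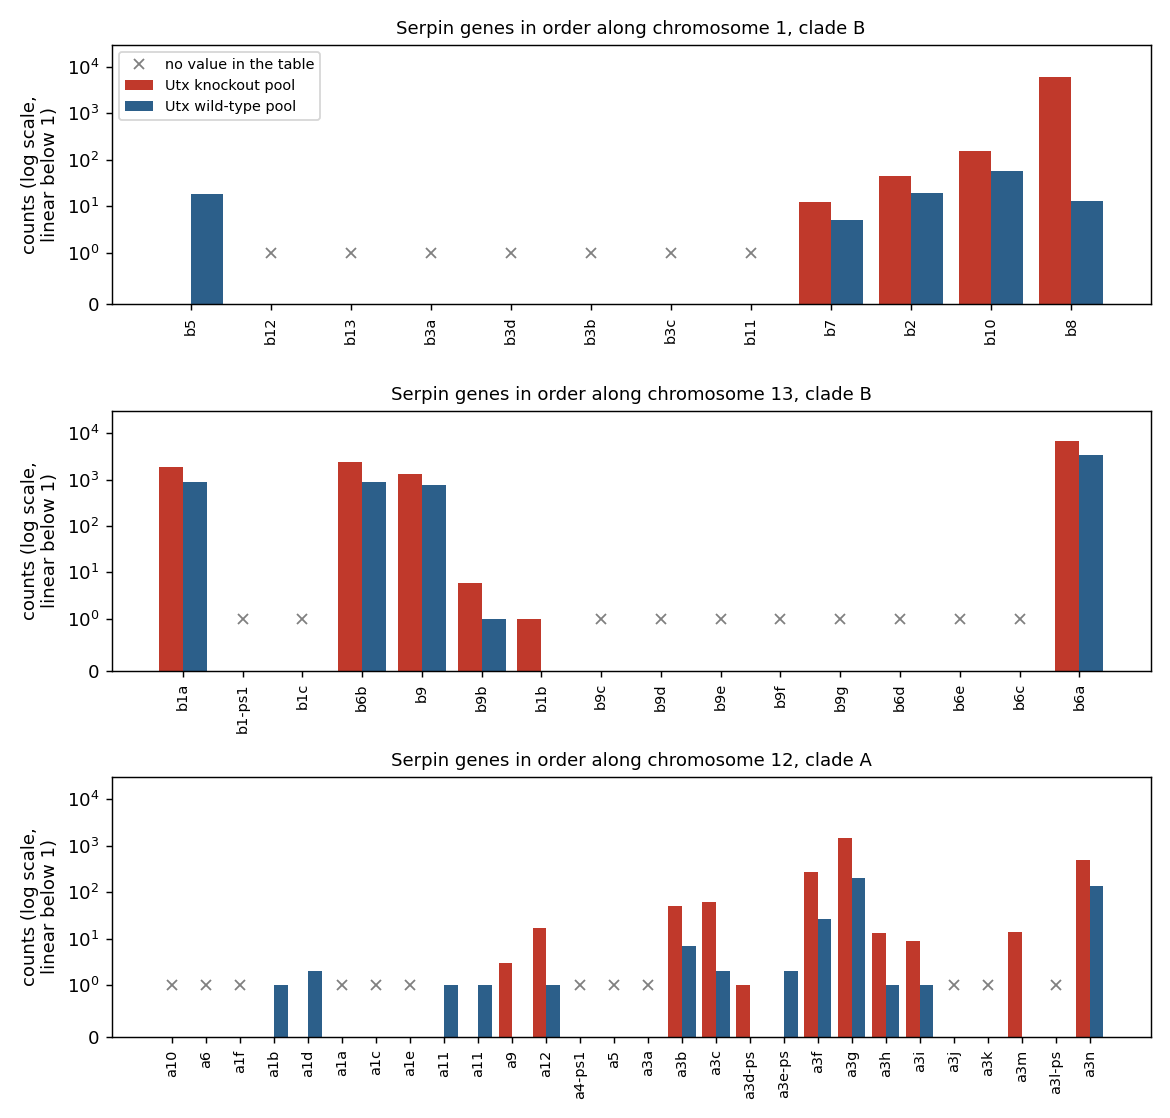
Counts of every serpin gene in 3 rows along chromosomes 1, 13 and 12, in the order of their starts (log axis, linear below 1), with red bars for the knockout pool, blue bars for the wild-type pool and a cross where the table has no value. Serpinb8 ends the first row at 6053 against 13 counts, and the tall bars of the third row belong to the Serpina3 copies, led by Serpina3g at 1493 against 198.

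Because the Serpina3 copies share runs of sequence, reads of 50 bases may not all be assigned to the right copy. The annotated coding sequence of Serpina3g has 747 bases against 1257 for Serpina3n, and the pair is 41.0% identical with gaps counted. Serpina3f and Serpina3n are 76.8% identical. Of the distinct 50-base words in the GENCODE M21 transcripts of Serpina3g, 84.5% occur in no other gene's transcripts on either strand; the shares were 89.4% for Serpina3f and 93.1% for Serpina3n. A stretch where Serpina3g and Serpina3n are least alike is given here, with capitals at the bases that differ. It covers bases 515 to 574 of the annotated coding sequence of Serpina3g (chr12:104241094-104241153, GRCm38, plus strand) and bases 1121 to 1180 of that of Serpina3n (chr12:104413470-104413529, plus strand), and lies in 1 exon of each.
Serpina3g: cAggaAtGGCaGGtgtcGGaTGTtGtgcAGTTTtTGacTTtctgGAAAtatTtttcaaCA
Serpina3n: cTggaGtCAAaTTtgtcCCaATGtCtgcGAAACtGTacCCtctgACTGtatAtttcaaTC
Of these 60 bases 29 differ between this pair, and the stretch was not compared with the other copies. Elsewhere the same 2 genes share an unbroken run of 100 coding bases that crosses an exon border, and a read of 50 bases inside it fits both.
Run shared by Serpina3g and Serpina3n: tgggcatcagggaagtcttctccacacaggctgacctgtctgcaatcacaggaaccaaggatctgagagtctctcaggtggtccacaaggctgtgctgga
No source used here states how reads that fit more than 1 gene were counted, so the division of counts among the copies is uncertain.

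Promoter windows of Serpina3g (chr12:104235897-104236196) and Serpina3f (chr12:104214294-104214593), both on the plus strand of GRCm38.p6 and from RefSeq, are printed because these neighbours had the largest ratios of the called Serpina3 genes. Capitals mark TTCNNNGAA, the form bound by STAT factors (its 6 fixed letters), and TGGGAA, each on either strand.
Serpina3g promoter: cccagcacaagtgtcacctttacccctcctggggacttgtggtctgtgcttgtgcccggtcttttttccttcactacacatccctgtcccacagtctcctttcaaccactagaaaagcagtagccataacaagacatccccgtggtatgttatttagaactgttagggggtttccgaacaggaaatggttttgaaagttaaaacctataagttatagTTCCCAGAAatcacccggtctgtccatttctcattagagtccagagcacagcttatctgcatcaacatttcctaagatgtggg
Serpina3f promoter: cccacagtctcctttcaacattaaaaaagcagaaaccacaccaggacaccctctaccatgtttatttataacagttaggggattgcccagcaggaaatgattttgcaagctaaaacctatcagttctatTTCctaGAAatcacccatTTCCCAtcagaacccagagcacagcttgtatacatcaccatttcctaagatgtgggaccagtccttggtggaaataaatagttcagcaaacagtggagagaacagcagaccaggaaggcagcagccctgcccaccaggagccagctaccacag
In Serpina3g a TTCNNNGAA match and a TGGGAA match on the other strand overlap within TTCCCAGAA, and in Serpina3f they do not overlap. TTCNNNGAA was found in 8.30% of all 32851 windows. Among the 16 serpin genes with at least 20 counts and a window in the table, 4 hold it: Serpina3f, Serpina3g, Serpinb2 and Serpinb6a. A gene counts here if any of its windows has a match, whereas the shares of all windows are per window. By window, 6 of the 19 serpin windows hold TTCNNNGAA. Serpina3f and Serpinb2 each have 2 overlapping windows with the same match, which is counted in both. TGGGAA was in windows of 8 of the 16: Serpina3b, Serpina3c, Serpina3f, Serpina3g, Serpina3n, Serpinb6b, Serpinb8 and Serpinb9. By window it was in 9 of 19, beside 25.6% of all windows, with the match of Serpina3f again counted in both of its windows. CACGTG, an E-box, was in 0 of the 16 and in 7.15% of all windows. Longer motifs of interferon regulatory factors and of NF-kappaB were in 2 (Serpinb6a and Serpinb9) and 0 of the 16, against 3.44% and 0.41% of all windows.

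Per kb of exon, the 4 well-read clade B genes on chromosome 13 were the most abundant serpins of the wild-type pool. Serpinb6a, an inhibitor of cathepsin G, had 6620 against 3317 counts, and its log2 ratio was 1.02 (0.96 to 1.08). Serpinb1a, the main cytosolic inhibitor of neutrophil elastase, cathepsin G and proteinase 3, had 1824 against 897 counts, and its log2 ratio was 1.04 (0.93 to 1.16). Both were called higher, and both lie so close to 2-fold that their intervals reach below it. Serpinb6b, a close relative of Serpinb6a, had 2422 against 890 counts and stood clear of 2-fold at 1.46 (1.35 to 1.58). Serpinb9, the guard of cytotoxic cells against their own granzyme B, had 1313 against 753 counts and stayed under 2-fold at 0.82 (0.69 to 0.95).

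These 4 genes lie among silent relatives. Serpinb9b had 6 against 1 counts and Serpinb1b 1 against 0. Another 10 members of the row had no value: Serpinb1c, Serpinb1-ps1, Serpinb6c, Serpinb6d, Serpinb6e, Serpinb9c, Serpinb9d, Serpinb9e, Serpinb9f and Serpinb9g. The whole row summed to 12186 against 5858 counts, or on the log2 scale 1.08 (1.03 to 1.12). Of the genes just outside it, beyond Serpinb1a, Wrnip1 and D930007J09Rik were at -0.30 and -0.24. Mylk4 was at 0.93 (0.60 to 1.26), an interval that holds the ratio of the row. Nqo2 and Ripk1, whose models overlap that of Serpinb6a, were at -0.27 and 0.52. Only 74.9% of the 50-base words of Serpinb6a are its own, with 12.5% shared with Nqo2, and no source used here states whether counting used the strand, so the value of Serpinb6a is uncertain. The share was 97.1% for Serpinb6b, 97.2% for Serpinb1a, 99.6% for Serpinb9 and 99.8% for Serpinb8. The coding sequences of Serpinb6a and Serpinb6b are 81.2% identical, and those of Serpinb8 and Serpinb9 66.1%.

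Serpinb10, or bomapin, an intracellular serpin of myeloid precursors, was called higher at 1.42 against 0.52 CPM, or on the log2 scale 1.44 (1.00 to 1.92). GENCODE M21 lists Serpinb10 as a polymorphic pseudogene. Serpinb2, the inhibitor of urokinase called PAI-2, had too few reads for a call and stood at 1.24 (0.46 to 2.12). The models of these 2 genes overlap and share 243 of their 50-base words, which is 6.97% of those of Serpinb10 and 10.4% of those of Serpinb2. Over all of clade B, 5 of the 6 members with enough reads were higher, beside 11.2% of all genes with enough reads. The 28 rows of the clade summed to 173 against 55.3 CPM. With Serpinb8 left out, clade B summed to 116 against 55.1 CPM, or on the log2 scale 1.08 (1.03 to 1.12).

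**Figure D3:**
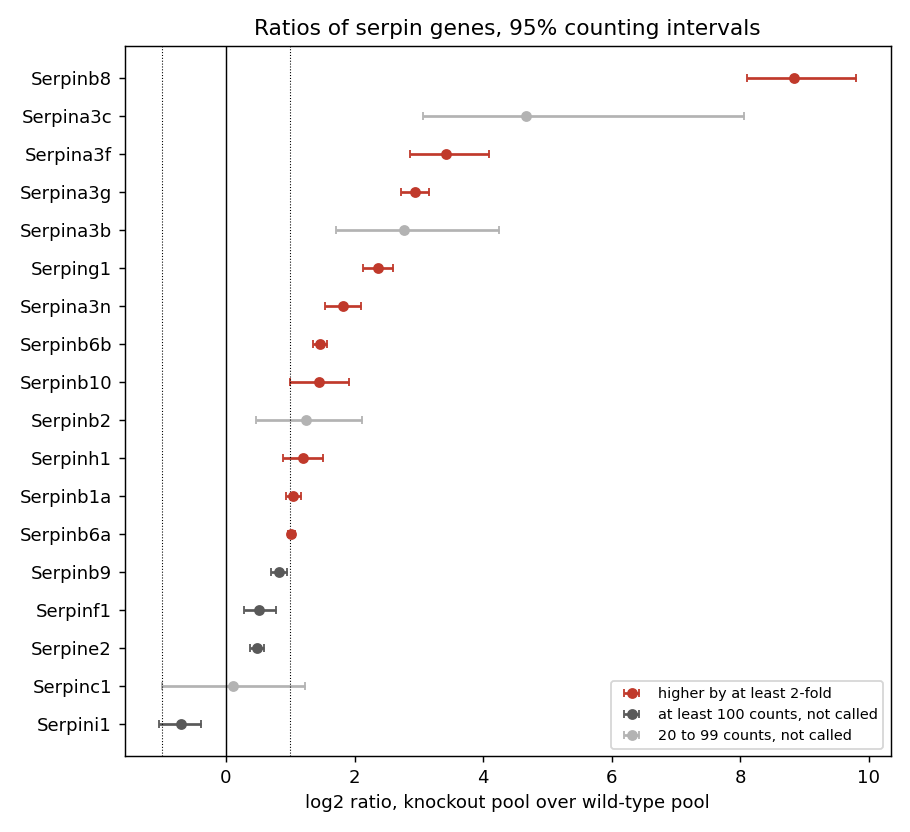
Log2 ratio of knockout over wild-type pool for 18 of the 19 serpin genes with at least 20 combined counts, with bars for the 95% counting interval and dotted lines at 2-fold. Red points are the 10 genes called higher, dark points the 4 with at least 100 counts and no call, and pale points 4 of the 5 with 20 to 99 counts; Serpini1 at -0.70 is the only point left of 0.

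Members of the other clades act in complement, clotting, fibrinolysis and collagen folding. Serping1, the C1 inhibitor that restrains complement and contact proteases, had 903 against 178 counts. Its log2 ratio of 2.36 (2.13 to 2.60) was the largest outside clades A and B among members with at least 100 counts. Serpinh1, the collagen chaperone Hsp47, which inhibits no protease, was higher on 289 against 128 counts, or on the log2 scale 1.19 (0.89 to 1.51). All 50-base words of Serping1 and of Serpinh1 were their own. Serpine2, protease nexin 1, a cell surface inhibitor of thrombin and urokinase, had 1655 against 1198 counts, or on the log2 scale 0.49 (0.38 to 0.60). Serpinf1, the growth factor PEDF, which is also no inhibitor, had 324 against 229 counts, its log2 ratio being 0.52 (0.27 to 0.77).

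Serpini1, neuroserpin, an inhibitor of tissue plasminogen activator, was the only member with at least 20 combined counts and a negative ratio. It had 128 against 212 counts, and its log2 ratio of -0.70 (-1.03 to -0.38) was short of a 2-fold call. Members with fewer than 20 counts lay on both sides, such as Serpinb5 (0 against 18 counts) and Serpina12 (17 against 1). Serpinc1, antithrombin, had 16 against 15 counts, its log2 ratio being 0.11 (-0.997 to 1.23). Serpind1 (13 against 5 counts), Serpine3 (12 against 1) and Serpinf2, the antiplasmin gene (3 against 12), were barely read, and Serpini2 had no value.

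The order of the 14 members by level per length differed between the pools, with Serpinb8 at rank 1 in the knockout pool and 14 in the other. In the wild-type pool Serpinb6a led at 5.68 CPM per kb, followed by Serpinb6b at 3.64 and Serpinb1a at 3.61, whose Poisson intervals overlap, then Serpinb9 at 2.00 and Serpine2 at 1.34. In the knockout pool Serpinb8 at 11.9 and Serpinb6a at 11.5 CPM per kb stood next to each other with overlapping intervals (11.6 to 12.2 and 11.2 to 11.8), followed by Serpinb6b at 10.1, Serpinb1a at 7.44 and Serpina3g at 6.66. Serpina3g ranked 5 of 14 in the knockout pool, against 7 in the other. Serping1 ranked 6 and 8, Serpine2 9 and 5, Serpinf1 10 and 6, and Serpinb9 7 and 4. Exon lengths are those of all GENCODE M21 isoforms joined, so a gene with long rare exons is set too low.

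The proteases that serpins trap did not follow one direction. Among all 13833 genes with at least 100 counts, 11.2% were called higher and 5.36% lower. Those shares also apply to the lists of complement, clotting, receptor, collagen folding and inhibitor genes further on. Of the 4 neutrophil serine protease genes measured, 0 were called: Elane was at 0.47, Prtn3 at 0.66, Ctsg at 0.86 and Prss57 at -0.78. Among 3 granzyme genes with enough reads, Gzmb (2.14; 344 against 79 counts) and Gzmk (1.49) were higher, and Gzma, the granzyme gene with the most counts, was at -0.29 on 20530 against 25490 counts. Of 10 cysteine cathepsin genes 3 were higher, Ctsf (2.69), Ctsh (1.62) and Ctsc (1.03), and Ctsw was lower on 75 against 153 counts; Ctsb, Ctsl and Ctss, the cathepsins of lysosomes and antigen processing, were at 0.38, 0.43 and 0.90. Furin, the known partner of Serpinb8, was at 3110 against 4653 counts, or on the log2 scale -0.56 (-0.63 to -0.49), and none of the 4 proprotein convertase genes with enough reads was called.

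Complement protease genes split as well. Of 6 with enough reads, 3 were higher, Masp1 (3.67; 2392 against 190 counts), C1s (2.23) and C1ra (1.70), all of which encode proteases that Serping1 blocks, and Masp2 of the same group was lower at -1.39. Of 3 plasminogen activation genes the urokinase gene Plau was higher at 1.48 on 97 against 35 counts, and its receptor gene Plaur was at 0.66. F10 was the only one of 9 clotting and contact protease genes with enough reads and was higher at 1.05. Lrp1, a receptor that clears serpin and protease complexes, was higher at 1.19, the only one of 6 such receptor genes to be called.

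Partners of Serpinh1 in collagen folding showed no common shift. Of 18 genes 4 were higher, P4ha3 (2.84), Plod2 (2.23), Col3a1 (1.32) and Plod1 (1.25), 1 was lower, Leprel2 (-1.08), and 13 were neither; their median log2 ratio was 0.22. Col1a1 and Col1a2, the main clients, were at 0.28 and -0.37. Protease inhibitors of other families had a median of -0.01 over 14 genes, with 4 higher and 2 lower. Tfpi (2.02), Timp3 (1.80), Timp1 (1.49) and Stfa3 (1.08) were higher, Spink2 was lower at -5.27 on 17 against 684 counts and Itih5 at -2.42, and the abundant cystatin gene Cst3 was at -0.11. The serpin median of 1.32 lay above those of these 2 lists, near the 1.29 of the complement proteases and below the 1.49 of the 3 granzyme genes, with no test of the differences.

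**Figure D4:**
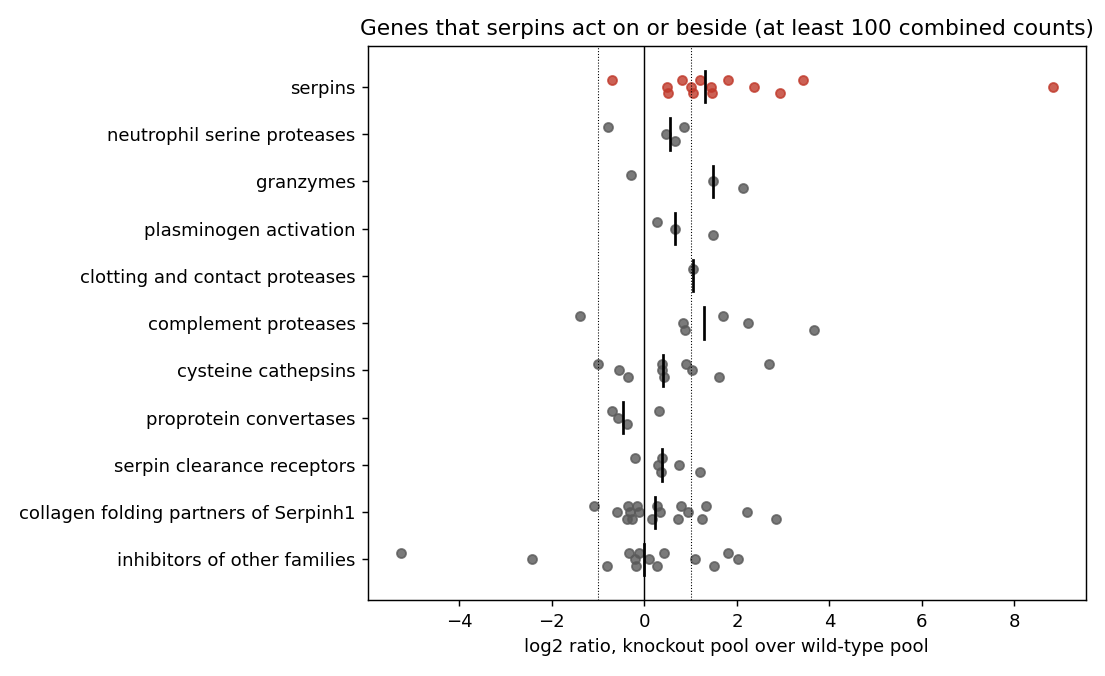
Log2 ratio of knockout over wild-type pool for serpins (red) and for 10 lists of genes that serpins act on or beside (grey), each point 1 gene with at least 100 combined counts and each bar the list's median. The list medians run from -0.47 (proprotein convertases) to 1.49 (granzymes, 3 genes), with the serpin median at 1.32, complement proteases at 1.29 and inhibitors of other families at -0.01.

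Several marker lists of other cell types also differed between the pools. The counts of called markers stand beside 11.2% of all 13833 genes with at least 100 counts called higher and 5.36% called lower. T cell markers were abundant, at 2647 against 3545 CPM in sum, with 1 of 10 lower (Thy1, -1.06) and 0 higher. Macrophage and monocyte markers were higher for 9 of 9 genes with enough reads, with ratios from 1.46 (Csf1r) to 2.43 (Marco) and a sum of 240 against 75.3 CPM. Neutrophil markers, at 2515 against 2066 CPM, had 2 of 10 higher, Mpo (1.07) and Retnlg (1.01). The interval of Retnlg (0.93 to 1.08) reaches below 2-fold. NK cell markers had 5 of 6 higher and summed to 40.4 against 10.4 CPM, led by Fasl (2.87) and Prf1 (2.27), while the defining receptor gene Ncr1 had 14 and 4 counts. Mast cell and basophil markers had 4 of 4 higher, between Cpa3 (3.36) and Prss34 (4.86), with a sum of 25.2 against 1.77 CPM. The part of these cells in the serpin ratios was not tested.

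The remaining marker lists were mixed, again beside 11.2% of all genes called higher and 5.36% called lower. Megakaryocyte and platelet markers had 3 of 6 higher and summed to 24.1 against 10.4 CPM, with Ppbp at 2.66. Stromal and endothelial markers had 5 of 7 higher, led by Cxcl12 (2.92), and Pdgfrb lower at -1.48, so that the sum turned the other way at 57.7 against 93.8 CPM. Erythroid markers summed to 5211 against 3207 CPM with 1 of 6 higher, Alas2 at 1.33. B cell markers had 0 of 5 higher and 1 lower, Pax5 at -2.04. The liver list shares its tissue with many clade A serpins. In it Alb had 12 against 0 counts, Ttr 0 against 4, Fgb 2 against 0, Apoa1 9 against 12 and Apoa2 29 against 4. Ahsg had 366 against 0, at least 124-fold higher by the limit of 3 counts, and Hp, the most read of the list, had 5183 against 4067 (0.37).

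**Figure D5:**
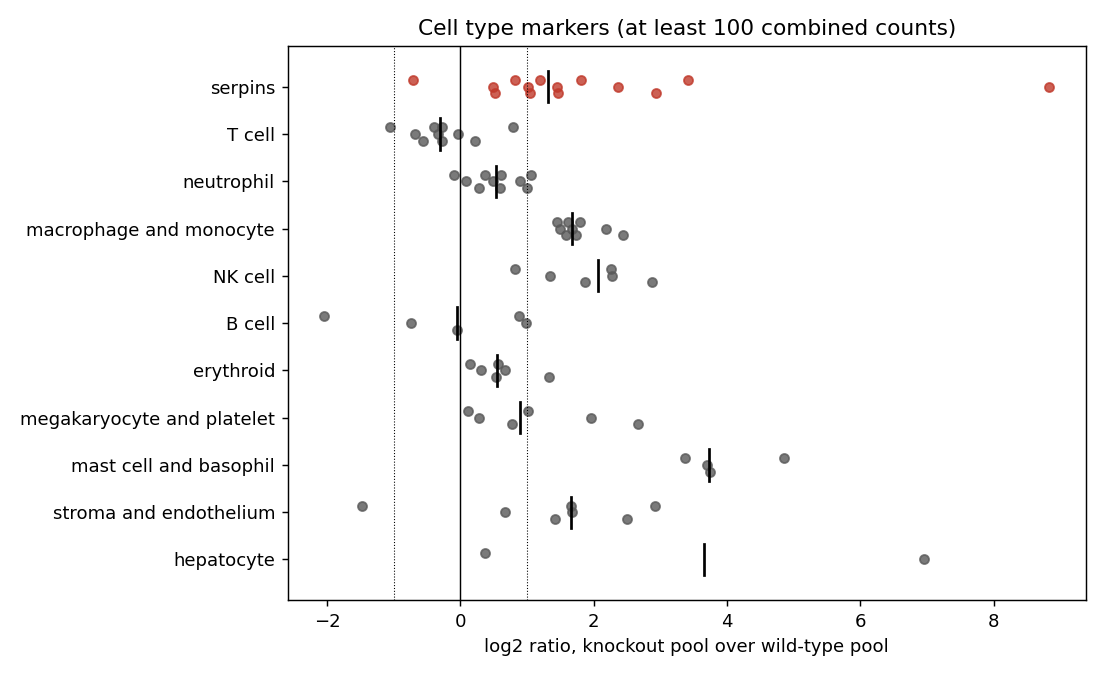
Log2 ratio of knockout over wild-type pool for serpins (red) and 10 lists of cell type markers (grey), each point 1 gene with at least 100 combined counts and each bar the list's median; Ahsg, with 0 counts in the wild-type pool, is drawn at its lower bound. Macrophage and monocyte markers lie between 1.46 and 2.43, T cell markers between -1.06 and 0.80.

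The authors' deposited table gave a Benjamini-Hochberg adjusted p from DEGseq for the same pools. In that table Serpinb8 had an adjusted p of 0 as written, Serpini1 of 1.89e-05, Serpinf1 of 5.09e-05, Serpinb2 of 0.00147 and Serpinc1 of 0.863. These p-values compare 2 pools of reads and the table holds no spread between samples.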

How the data were processed

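Libraries of poly(A) RNA, made with a kit that marks strand, gave single 50-base reads, per the labels' protocols; the series' design text also names ribosomal RNA depletion. CASAVA, TopHat and the mm9 build are named, without versions, per the submitters' processing notes. The authors' table, as deposited, holds 1 whole-number count per gene and genotype. No source used here states which samples entered it, the annotation or the counting tool. The first column was read as the knockout from the order of names in the title of the file, and Kdm6a was checked. The authors deposited log2 fold changes, p-values and 2 kinds of q-values from DEGseq; the log2 values were used only for a recount of calls with the Benjamini-Hochberg q, and the deposited z score and its p under 0.001 mark were not used. Of all rows, 13843 had no value.

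CPM, ratios (pseudocount 0.5) and exact intervals were computed in Python 3.11.15 with scipy 1.17.1. They treat reads as independent molecules. With 1 column per genotype no test across samples was possible; 0 columns of single samples were left unused. Members were matched to GENCODE M21 (GRCm38) by identifier, 68 of 68; its coordinates are not those of mm9. Lists were matched by symbol or synonym. The members and lists were chosen with earlier results of these data known. Named genes are members with at least 20 counts (1 of them is not reported here by name, and enters only the counts and medians), called list members and up to 2 highest and 2 lowest of each list; a few more list genes and the members with fewer counts were named for completeness, after their values were seen. Promoters are RefSeq's; protein sequences were not used here. Calls and intervals were run on simulated counts of the knockout against the wild-type pool for 13833 genes. Only a small part of these genes was given a change. At a log2 change of 1.5, 100% were recovered, 0 unchanged genes were called and intervals covered 95.4% of true ratios. The counts were drawn from the counting model that the intervals assume, with no spread between tumours. The simulation thus checked the code and not the error between samples. Other scalings (edgeR 4.0.16), pseudocounts, minimums and the authors' q were tried as alternatives.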

Additional observations from a re-analysis of the deposited data

How the results depend on the processing

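The count of 10 serpins called higher and 0 called lower was the same under TMM, upper quartile and median of ratios scaling, with a total free of mitochondrial genes, with a pseudocount of 5 and with the authors' adjusted p. It was 14 of 19 higher with a count minimum of 20 (13.6% of all genes) and 7 of 10 with a minimum of 500 (7.56%). With a fold minimum of 1.5 there were 11 higher and 1 lower (Serpini1), beside 18.9% and 14.7% of all genes, and with a minimum of 4 there were 4 higher, beside 3.95%. Counting only members with at least 95% own 50-base words, chosen after seeing the data, left 5 higher of 9. The share of all genes called higher was then 11.2%, with the word limit applied to serpins only. The members that this limit removed, Serpina3f, Serpina3g, Serpina3n, Serpinb6a and Serpinb10, were all called higher, and the 4 without a call stayed. The median over the 19 members with at least 20 counts lay between 1.38 (pseudocount of 5) and 1.52 (TMM). It was 1.32 over the 14 with at least 100 counts, 1.38 over all with a value and 1.34 without Serpinb8. Over 95 recomputed ratios of single members, 92 stayed within their interval, 3 moved beyond it (Serpinb6a, to between 1.08 and 1.10 under other scalings) and 0 changed sign. The median of all genes with at least 100 counts went from -0.07 to 0.01 with TMM. No paired analysis was possible because the table holds 1 pooled value per genotype, and for the same reason no sample could be left out. Depth limits the members with few reads: over the 14 members with at least 100 counts the median half-width of the log2 interval was 0.24.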
